A study of Mus musculus with 2 samples.

Results

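Langerhans cells, the dendritic cells of the epidermis, were examined in 2 single-cell 3' RNA libraries of mouse dorsal skin. They were taken as barcodes with at least 200 genes detected and at most 20% mitochondrial counts that held at least 2 counts of Cd207, at least 10 summed counts of the MHC class II genes H2-Aa, H2-Ab1, H2-Eb1 and Cd74, and 0 counts of Cd3e and Cd3g. Of 18965 retained cells in both libraries, 573 met this rule. One library came from skin treated with Shi-Bi-Man, a natural product preparation, together with imiquimod and held 72 such cells among 7946 retained cells. The other came from skin treated with imiquimod without Shi-Bi-Man and held 501 among 11019. Both were from C57BL/6 mice aged 7 weeks, and imiquimod was given in both groups, so neither library shows untreated skin. Imiquimod, an agonist of the receptor TLR7, gives mice a psoriasis-like skin inflammation. The labels used here give no dose, number of mice or pooling of mice. With 1 library per group there is no replicate check. Every interval below is a 95% interval that treats counts as independent and covers counting error only, and no difference between the libraries can be told apart from a difference between 2 mice or 2 preparations.

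Langerhans cells settle in the epidermis before or around birth, depend on the receptor Csf1r and on TGF-beta, and renew themselves by division in place. Their name-giving lectin, langerin, is encoded by Cd207 and forms Birbeck granules. After activation they lower their attachment to keratinocytes, raise the chemokine receptor CCR7 and travel to the draining lymph node, where MHC class II molecules and the costimulatory proteins CD80 and CD86 let them engage T cells. In imiquimod-treated skin, dendritic cells and macrophages are known sources of IL-23, the cytokine that sustains IL-17-producing T cells, and the study's title names this axis and the chemokine CXCL16.

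The members were fewer in the library with Shi-Bi-Man. They made up 0.906% of retained cells there (0.710 to 1.14, exact Clopper-Pearson interval) and 4.55% in the imiquimod library (4.17 to 4.95), which is 5.02-fold lower, or a log2 ratio of -2.33 (-2.70 to -1.97). The count of Cd207 over all retained cells was 40.9 CPM (counts scaled to a total of 1000000) in the library with Shi-Bi-Man (38.2 to 43.7). It was 202 CPM in the imiquimod library (197 to 207). The members held 89.6% of all Cd207 counts in the library with Shi-Bi-Man and 89.8% in the imiquimod library. The level over all retained cells thus rests mostly on the counts that the rule used and is no separate check of the share.

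Other cells that simple marker rules picked out also differed in share, in both directions. Macrophage-rule cells made up 6.19% of the library with Shi-Bi-Man and 9.31% of the imiquimod library, and T-rule cells 3.52% of the library with Shi-Bi-Man and 14.7% of the imiquimod library. Fibroblast-rule cells went the other way, with 27.5% in the library with Shi-Bi-Man and 15.2% in the imiquimod library. Per 100 macrophage-rule cells there were 14.6 Langerhans cells in the library with Shi-Bi-Man and 48.8 in the imiquimod library. Per 100 T-rule cells there were 25.7 in the library with Shi-Bi-Man and 31.0 in the imiquimod library. The lower share was therefore seen against all retained cells and against macrophage-rule cells, and much less against T-rule cells, whose own share was lower by a like factor. Whether fewer such cells were in the skin or fewer were recovered cannot be told apart here.

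**Figure D1:**
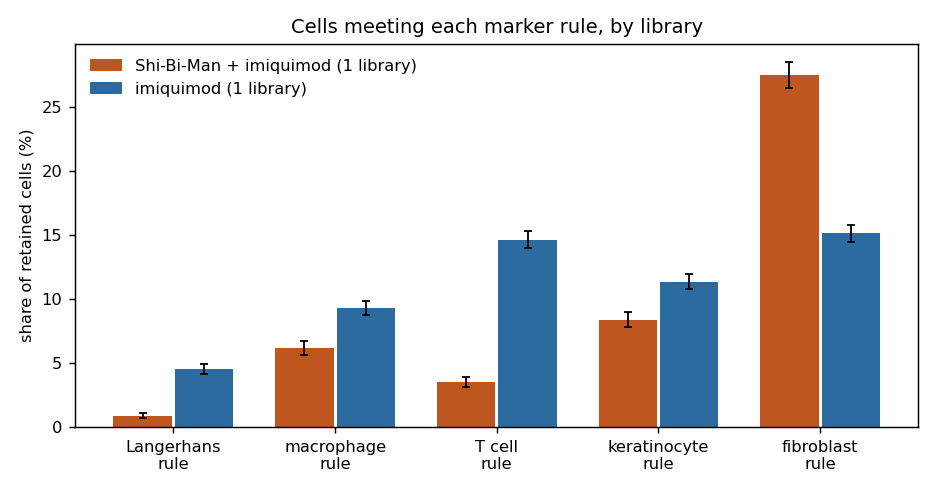
Share of retained cells in percent (y axis) that met each of 5 marker rules (x axis), for the library with Shi-Bi-Man plus imiquimod (left bars) and the imiquimod library (right bars), with 95% Clopper-Pearson intervals over cells. Langerhans-rule cells stood at 0.906% with Shi-Bi-Man and 4.55% with imiquimod, T-rule cells at 3.52% with Shi-Bi-Man and 14.7% with imiquimod, and fibroblast-rule cells ran the other way at 27.5% with Shi-Bi-Man and 15.2% with imiquimod.

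The 2 libraries had like median counts per barcode (1762 with Shi-Bi-Man and 1617 with imiquimod), but the members did not. The deposited tables held 20837259 counts over 8054 barcodes with Shi-Bi-Man and 28920316 counts over 11316 barcodes with imiquimod. The median member had 2132 counts and 927 genes in the library with Shi-Bi-Man (range 515 to 6006 counts) and 3043 counts and 1233 genes in the imiquimod library (529 to 20344 counts). Summed, the members gave 162047 counts with Shi-Bi-Man and 1690771 counts with imiquimod, so a gene's level rests on far fewer counts in the library with Shi-Bi-Man. When every cell was thinned to 500 counts and the rule applied again, 47 cells with Shi-Bi-Man and 226 with imiquimod met it and the log2 ratio of the shares was -1.79. The libraries shared 49 barcodes, of which 0 were members in the library with Shi-Bi-Man and 2 in the imiquimod library.

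The threshold on Cd207 lay within a continuous range of counts. Members held a median of 7 Cd207 counts with Shi-Bi-Man (2 to 75) and 8 with imiquimod (2 to 55). Just inside the threshold, 11 members with Shi-Bi-Man and 49 with imiquimod had exactly 2 Cd207 counts, with a median of 201 class II counts in both libraries. Just outside it, 17 cells with Shi-Bi-Man and 123 with imiquimod had 1 Cd207 count and enough class II, with median class II sums of 70 with Shi-Bi-Man and 99 with imiquimod. The class II threshold and the T cell criterion decided few cells, since 2 cells with Shi-Bi-Man and 10 with imiquimod that had enough Cd207 fell short on class II, and 1 with Shi-Bi-Man and 28 with imiquimod were left out for Cd3e or Cd3g.

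Most members carried other genes of Langerhans cells. Several of these genes had a lower share with Shi-Bi-Man, where 13 cells described further on lacked much of that profile. Mfge8, a secreted protein that tags dying cells for uptake, had a count in 77.8% of members with Shi-Bi-Man and 93.0% with imiquimod, and in 58.3% with Shi-Bi-Man and 83.2% with imiquimod after thinning to 500 counts. Epcam, an adhesion molecule used to tell Langerhans cells from dermal dendritic cells, had one in 44.4% with Shi-Bi-Man and 65.3% with imiquimod. Csf1r, the receptor for IL-34 and CSF-1, had one in 61.1% with Shi-Bi-Man and 84.2% with imiquimod. Thinned to 500 counts, Csf1r had 30.6% with Shi-Bi-Man (20.2 to 42.5) and 37.7% with imiquimod (33.5 to 42.1). Il1r2 then went the other way, at 83.3% with Shi-Bi-Man and 78.0% with imiquimod, as did Tbc1d4, at 65.3% with Shi-Bi-Man and 54.3% with imiquimod. Thinned to 1000 counts, both were lower with Shi-Bi-Man, Il1r2 at 79.7% against 86.4% and Tbc1d4 at 68.8% against 71.5%. Only 5 of 72 members with Shi-Bi-Man and 14 of 501 with imiquimod lacked any count of Epcam, Mfge8 and Il1r2. Markers of the cross-presenting dermal dendritic cells, which also carry langerin, were not absent from the members with Shi-Bi-Man. The list of 9 summed to 457 CPM with Shi-Bi-Man and 119 CPM with imiquimod, and to 128 CPM with Shi-Bi-Man and 194 CPM with imiquimod in the remaining cells, and 3 of its 4 measured genes were higher with Shi-Bi-Man. Its defining markers were rare. Xcr1 and Clec9a each had 3 counts over all members with Shi-Bi-Man and 0 over all with imiquimod, which allows up to 1.77 CPM, and Itgae, the integrin chain CD103, had 1 count with Shi-Bi-Man and 24 counts with imiquimod. All Xcr1 and Clec9a counts lay in the 13 cells, which were chosen partly on these 2 genes. Irf8 and Itgam had no count in any cell of either table and carry no information here.

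RNA of other skin cells was present in most members. In all, 67 of 72 members with Shi-Bi-Man and 438 of 501 with imiquimod carried 3 or more summed counts of keratinocyte, fibroblast, endothelial and T cell markers. The collagen gene Col1a1 had a count in 52.8% of members with Shi-Bi-Man and 21.4% with imiquimod, although Langerhans cells are not known to make type I collagen. After thinning each cell to 500 counts the shares were 22.2% with Shi-Bi-Man and 4.39% with imiquimod. One cell held 62.1% of the members' Col1a1 counts with Shi-Bi-Man and one held 51.6% with imiquimod. All 6 fibroblast markers were higher in the members with Shi-Bi-Man, at a summed 6116 CPM against 1454 CPM in imiquimod members, and in the remaining cells their sums were 27242 CPM with Shi-Bi-Man and 12888 CPM with imiquimod. The keratinocyte markers summed to 2900 CPM with Shi-Bi-Man and 3097 CPM with imiquimod. Neutrophil markers had 3 counts in members with Shi-Bi-Man and 575 in members with imiquimod, and the remaining cells had 35.3 CPM with Shi-Bi-Man and 1450 CPM with imiquimod. How much of any difference between the libraries comes from such RNA was not tested. In the reverse sense, Cd207 stood at 4.28 CPM in non-members with Shi-Bi-Man and 21.9 CPM with imiquimod. Fibroblast-rule cells had 0 Cd207 counts because their rule required it, which carries no information here.

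MHC class II genes share a known promoter element, and it is shown here because their products are what these cells are built to display. The Y box, CCAAT or its reverse complement ATTGG, is bound by the factor NF-Y next to the X box that recruits the CIITA system. RefSeq windows of 250 bases before to 50 after the start site on GRCm38.p6 were searched on both strands for these letters. They were found in 9 of the 11 class II genes with a window (13 genes in all), against 37.4% of all windows and 41.1% of all genes. The 13 genes were the class II processing list with the rule genes H2-Aa, H2-Ab1 and H2-Eb1. The rule gene Cd74 was not among them, and of the genes printed below H2-DMb1 and H2-DMb2 were not in the rule. In each of the following stretches of 80 bases, printed 5′ to 3′ on the gene's strand, the capitals mark the match.
H2-Aa, chr17:34287847-34287926, minus strand: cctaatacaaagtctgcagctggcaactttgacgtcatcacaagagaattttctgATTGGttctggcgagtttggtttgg
H2-Eb1, chr17:34305753-34305832, plus strand: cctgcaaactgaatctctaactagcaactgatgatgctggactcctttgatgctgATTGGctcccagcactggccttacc
H2-DMb1, chr17:34153075-34153154, plus strand: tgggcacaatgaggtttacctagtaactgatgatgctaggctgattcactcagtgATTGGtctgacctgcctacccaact
H2-DMb2, chr17:34145104-34145183, plus strand: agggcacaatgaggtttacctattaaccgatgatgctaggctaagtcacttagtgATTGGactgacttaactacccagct
The first base of the match lay at -48 in H2-Aa, -59 in H2-Eb1, -61 in H2-DMb1 and -90 in H2-DMb2, counted from the annotated start. A match of letters is a description and not evidence of binding in these cells.

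In the imiquimod library the members stood apart from the remaining cells by class II presentation, eicosanoid enzymes, an IL-1 decoy receptor and a set of less familiar genes. Among 7432 genes with at least 20 counts in the imiquimod members, 12.2% were at least 2-fold higher than in the remaining cells and 12.8% at least 2-fold lower. The gene with the largest fold was Cd207 itself, on chromosome 6 (83671215 to 83677857, minus strand), at 3050 CPM and 139-fold over the remaining cells, which the rule fixed. The genes that follow were not in the rule, but the cells they describe were chosen by it, so the folds are a description.

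**Figure D2:**
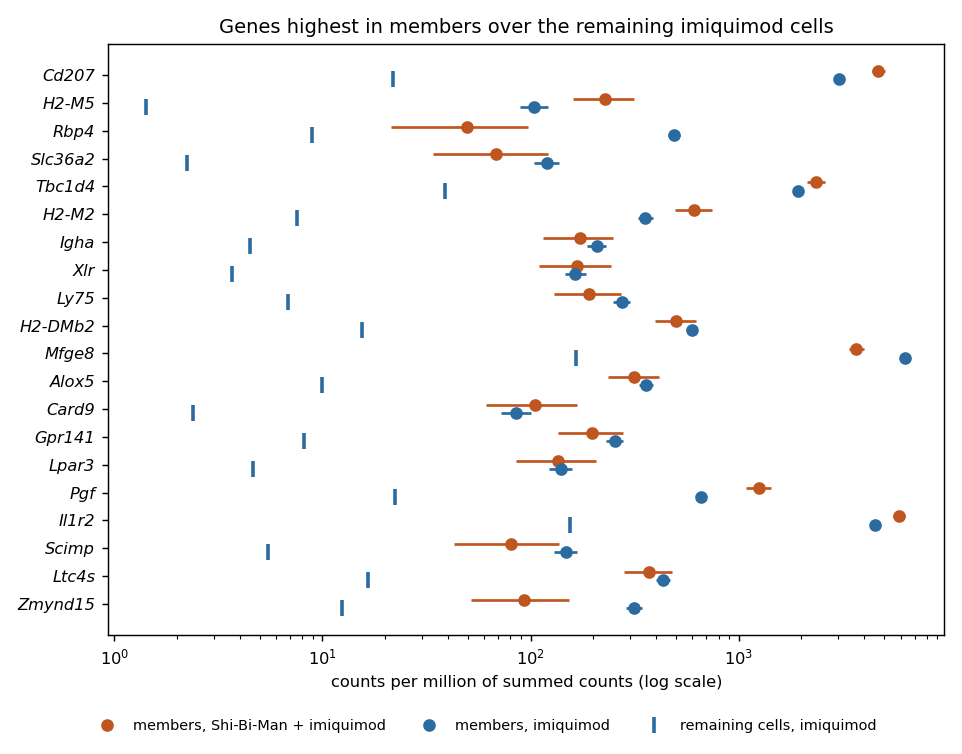
CPM on a log scale (x axis) for the 20 genes with the largest fold of imiquimod members over the remaining imiquimod cells (y axis), in members with Shi-Bi-Man plus imiquimod (upper points), members with imiquimod (lower points) and the remaining imiquimod cells (ticks), with 95% Poisson intervals. All 20 genes lie to the right of the ticks in both libraries, Rbp4 and Zmynd15 with the widest gap between the libraries.

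Nonclassical class I and class II chaperone genes were among the most restricted. H2-M5 had 104 CPM in imiquimod members and was 72.5-fold over the remaining cells, and H2-M2, of the same gene family, had 356 CPM and was 47.3-fold over. H2-DMb2, a chain of the H2-M peptide exchanger, was 38.1-fold over at 594 CPM, and H2-Oa, which restrains that exchanger, 22.0-fold. Of the 9 measured class II processing genes, 8 were at least 2-fold over and 0 under, with a median log2 fold of 3.52 against -0.11 over all measured genes. The others included H2-DMa at 18.6-fold, Ciita, the master coactivator of class II genes, at 11.6-fold and Ctss, the protease that trims the invariant chain, at 6.43-fold. The class I list was unlike this, with 2 of 15 genes over and 1 under.

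Enzymes that make lipid mediators from arachidonic acid were high as a chain. Alox5, which starts leukotriene synthesis, was 36.2-fold over the remaining cells at 360 CPM, its partner Alox5ap 12.7-fold, and Ltc4s, which makes leukotriene C4, 26.3-fold at 434 CPM. Hpgds, which makes prostaglandin D2, was 21.3-fold over at 885 CPM, and Ptgs1, the constitutive cyclooxygenase above it, 8.08-fold. The whole lipid list was mixed, with 5 of 12 genes over and 5 under. Those under were carriers and stores of lipid that other skin cells make in quantity, such as Apoe at 0.256-fold and Fabp5 at 0.104-fold.

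Among receptors, Il1r2, a decoy that binds IL-1 without signalling, stood out. It lies on chromosome 1 (40074079 to 40125231, plus strand), had 4522 CPM in the imiquimod members and was 29.2-fold over the remaining cells. In single cells it ranged between 0 and 189 counts per 10000 with a median of 45.3, so it was broadly present. Csf2rb and Csf2ra, the chains of the GM-CSF receptor, were 12.1-fold and 8.56-fold over, and Csf1r was 12.9-fold over at 969 CPM. Of 20 measured cytokine receptors, 9 were over and 2 under. Clec7a, the fungal glucan receptor Dectin-1, was 11.9-fold over, its adaptor Card9 35.4-fold, and Nlrp3, an inflammasome sensor, 17.8-fold. Tlr7, the receptor for imiquimod, had 1 count in members with Shi-Bi-Man and 0 with imiquimod, and Tlr9 had 0 in both, which allows up to 18.5 CPM with Shi-Bi-Man and 1.77 CPM with imiquimod.

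The identity list held both shared and restricted genes. Ly75, the endocytic receptor DEC-205, was 39.9-fold over the remaining cells, Mfge8 37.9-fold at 6276 CPM, and Spi1, the myeloid factor PU.1, 7.69-fold. Epcam was 3.02-fold and Cdh1, the E-cadherin that ties these cells to keratinocytes, 1.80-fold over, and keratinocytes are known to make both. Of 16 measured identity genes, 9 were over and 2 under, with a median log2 fold of 1.44. Genes outside the lists were also high. Tbc1d4, a GTPase-activating protein for Rab proteins, was 49.5-fold over at 1926 CPM, Slc36a2, an amino acid transporter, 53.2-fold, and Pgf, placental growth factor, 29.6-fold at 659 CPM. Rbp4, the retinol carrier of blood, was 54.6-fold over at 489 CPM and Igha, an immunoglobulin heavy chain constant gene, 46.1-fold at 208 CPM.

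Costimulatory genes and several chemokine genes were also high. Cd83, a marker of dendritic cell maturation that stabilises class II, was 25.04-fold over the remaining cells, Cd86 15.4-fold, Cd80 10.9-fold and Cd40 10.8-fold. Cd274, which encodes PD-L1, was 0.381-fold, with 18 counts in 501 cells. Of 8 measured genes of this list, 5 were over and 2 under. Among cytokines, Ccl22, which draws CCR4-bearing T cells, was 18.1-fold over, Cxcl16, which draws CXCR6-bearing cells, 7.99-fold, Cxcl2, which draws neutrophils, 7.44-fold and Il1b 6.48-fold. Il6 was 0.0789-fold. Interferon-induced genes were not above the other cells, with 1 of 10 over and 2 under, and immediate early and stress genes were lower, with 0 of 19 over and 8 under.

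The imiquimod members were not uniform. After thinning to 500 counts, 66 of 1273 genes had a variance at least 1.5 times the mean, which for counting noise would be 1. The highest ratios belonged to Dcn at 8.34, Col1a2 at 7.67 and Krt1 at 7.07, genes of fibroblasts and keratinocytes that a few members carried in quantity. Cd74, the class II invariant chain, had 6.83, Apoe 5.73, Lyz2, a lysozyme of macrophages, 3.39, Ccl22 2.86 and C1qc, a complement chain of macrophages, 2.85. The other genes of the top 15 were Cstdc5 at 6.63, Krt10 at 6.12, Col3a1 at 4.83, Crip1 at 3.76, Rgs1, a brake on chemokine receptor signalling, at 3.65, Malat1, a nuclear RNA, at 3.21 and Cst3, the protease inhibitor cystatin C, at 3.01. Rgs1, Malat1, Cst3 and Cd74 had a count in most thinned cells, whereas Dcn, Col1a2 and C1qc had one in fewer than 10% of them.

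A small fraction carried Ccr7, the receptor that guides dendritic cells into lymph vessels. At least 2 counts of Ccr7 were found in 5 of 72 members with Shi-Bi-Man (6.94%, 2.29 to 15.5) and in 41 of 501 with imiquimod (8.18%, 5.94 to 10.9). Those 41 imiquimod cells, set beside the 440 with no Ccr7 count, had 1823 CPM of Ccl22 against 156 CPM, and 847 CPM of Fscn1, an actin bundler of mature dendritic cells, against 6.84 CPM. Il4i1, an amino acid oxidase of mature dendritic cells, had 539 CPM in the Ccr7-bearing cells against 6.15 CPM, and Samsn1 834 CPM against 75.2 CPM. Fscn1 was carried by 12 of the 41 cells and Ccl22 by 28, so these genes marked some of the Ccr7-bearing cells and not all.

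Langerhans genes differed in both directions between the Ccr7-bearing cells and the cells with no Ccr7 count. Epcam was lower at 385 against 556 CPM, Cdh1 at 141 against 230 CPM, Hpgds at 603 against 922 CPM and Cd9, a tetraspanin, at 1239 against 1605 CPM. Cd207 had 3723 against 2921 CPM, H2-Aa 16990 against 16289 CPM, Mfge8 6573 against 6148 CPM and Tbc1d4 3068 against 1762 CPM. Costimulatory and checkpoint genes differed unevenly. Cd83 at 2227 against 1332 CPM and Cd86 at 578 against 439 CPM differed by less than Ccl22. Cd40 differed by more than these, at 212 against 58.1 CPM. Pdcd1lg2 had 51.3 against 4.79 CPM, from 8 counts against 7. Lgals9 was lower at 38.5 against 103 CPM, and Vsir had 0 counts against 26. Il1b had 937 against 382 CPM. Il12b, the shared chain of IL-12 and IL-23, was found in 3 imiquimod members, with 26 counts, and all 3 were among the 41 Ccr7-bearing cells. Among mitotic genes, Ccnb2, cyclin B2, was lower there at 225 against 721 CPM and Mki67, the antigen Ki-67, at 167 against 308 CPM, while Pclaf was not, at 212 against 209 CPM.

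**Figure D3:**
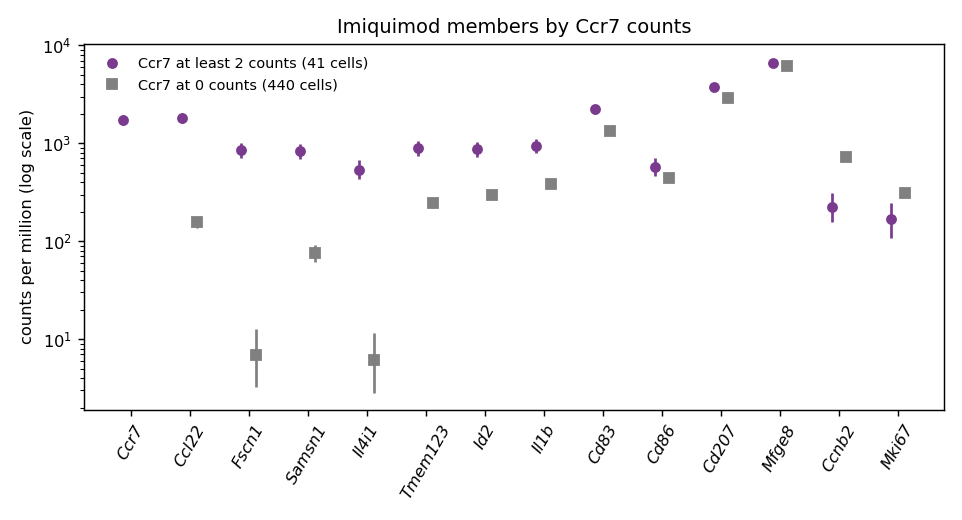
CPM on a log scale (y axis) of the genes named on the x axis in the 41 imiquimod members with at least 2 Ccr7 counts (circles, left) and the 440 with 0 (squares, right), with 95% Poisson intervals. Ccl22, Fscn1, Samsn1 and Il4i1 are far higher in the Ccr7-bearing cells, Cd207 and Mfge8 are close, and Ccnb2 and Mki67 are lower. Ccr7 has no square, as its count is 0 there by choice.

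With imiquimod, dividing cells formed a larger fraction than Ccr7-bearing cells. At least 10 summed counts of the 30 proliferation genes were found in 5 of 72 members with Shi-Bi-Man (6.94%, 2.29 to 15.5) and in 135 of 501 with imiquimod (26.9%, 23.1 to 31.1). The cut is on raw counts, and the median member had 2132 counts with Shi-Bi-Man and 3043 with imiquimod. Shares at equal depth are given further on. The 135 imiquimod cells were also deeper, at a median of 4595 counts, against 2609 for the 291 cells with 0 to 2 such counts. They had 1616 CPM of Ccnb2 against 15.6 CPM and 664 CPM of Mki67 against 36.3 CPM, which is how they were chosen. Genes outside the choice differed in both directions. Apoe was higher in the dividing cells at 2513 CPM against 980 CPM, C1qb at 359 against 183 CPM and Lgals9 at 142 against 67.4 CPM. The 75 cells with 3 to 9 such counts had 2968 CPM of Apoe, 366 CPM of C1qb and 73.2 CPM of Lgals9. High Apoe and C1qb were therefore not particular to the dividing cells. C1qa was close at 374.5 against 360 CPM, and Lyz2 was lower at 125 against 189 CPM. Several chemokine and Langerhans genes were lower in the dividing cells than in the 291. Ccl22 had 85.1 CPM against 511 CPM, Cxcl2 1096 against 2501 CPM, Il1r2 3482 against 5759 CPM, Tbc1d4 1315 against 2528 CPM and Cd83 1147 against 1868 CPM. Cd207 was 2677 against 3534 CPM and Mfge8 5508 against 6806 CPM, differing by less.

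Between the libraries, the members with Shi-Bi-Man had less of the proliferation genes and of Mfge8, Epcam and Cdh1. They had more of the immediate early genes, of Cd83 and of Cxcl2. Of 7712 genes with at least 20 counts over both libraries, 19.3% were at least 1.5-fold higher with Shi-Bi-Man and 26.4% at least 1.5-fold lower. With 72 cells against 501, most of these calls rest on few counts, and among 1427 genes with at least 200 counts the shares were 9.46% higher and 18.5% lower. The median log2 ratio of all measured genes was -0.08, and it was -0.01 when genes at 0 in 1 library were set to the bound of 3 counts. Scaling by TMM or by DESeq2 size factors raised every log2 ratio by 0.13, and 53.1% and 53.2% of called genes were then higher with Shi-Bi-Man, against 42.2% as reported. Only 5 members with Shi-Bi-Man and 63 with imiquimod carried fewer than 3 marker counts of other skin cells, and in those few cells the direction of Mfge8, Cdh1, Zmynd15, H2-M2, Psmb8, Havcr2, Clec7a, Ccl22, Ctnna1, Psap and Jun was the opposite of that given below.

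The rule genes themselves were higher with Shi-Bi-Man, as a description. Cd207 had 4690 CPM in members with Shi-Bi-Man and 3050 CPM with imiquimod, H2-Aa 17439 CPM with Shi-Bi-Man and 16446 CPM with imiquimod, H2-Ab1 23839 CPM with Shi-Bi-Man and 21824 CPM with imiquimod, and Cd74 96855 CPM with Shi-Bi-Man and 90382 CPM with imiquimod. Class II processing genes were close, with 2 of 9 higher, 0 lower and a median log2 ratio of -0.14. H2-DMa had 2209 CPM with Shi-Bi-Man and 2430 CPM with imiquimod, a log2 ratio of -0.14 (-0.30 to 0.02). Psmb8, an immunoproteasome subunit that cuts peptides for class I, was lower at 333 CPM with Shi-Bi-Man and 654 CPM with imiquimod (log2 ratio -0.96, -1.40 to -0.58), while the class I heavy chains H2-K1 and H2-D1 had log2 ratios of 0.54 and 0.39.

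The identity genes were divided, with 2 of 16 higher and 3 lower at 1.5-fold and a median log2 ratio of -0.19. Both parts were under the 19.3% higher and 26.4% lower of all measured genes, so the list as a whole did not stand out. Mfge8 (chromosome 7, 79133768 to 79149060, minus strand) had 3678 CPM with Shi-Bi-Man and 6276 CPM with imiquimod, a log2 ratio of -0.77 (-0.89 to -0.65). Per cell, its median was 30.3 counts per 10000 with Shi-Bi-Man and 57.2 with imiquimod, and the ranges of 0 to 145 with Shi-Bi-Man and 0 to 478 with imiquimod overlapped. Epcam had 296 CPM with Shi-Bi-Man and 541 CPM with imiquimod (log2 ratio -0.85, -1.32 to -0.45) and Cdh1 123 CPM with Shi-Bi-Man and 218 CPM with imiquimod (log2 ratio -0.78, -1.55 to -0.17). All 3 encode surface or secreted proteins that take part in contact with keratinocytes or dying cells. Without the cells that carry markers of other dendritic cells or monocytes, described further on, Mfge8 had a log2 ratio of -0.54 and was no longer lower by 1.5-fold. Csf1r was lower by less than 1.5-fold, with a log2 ratio of -0.46 (-0.75 to -0.19). Runx3, a transcription factor needed for Langerhans cells to form, had 179 CPM with Shi-Bi-Man and 108 CPM with imiquimod, and Ahr, the receptor for dioxin-like ligands, 191 CPM with Shi-Bi-Man and 82.2 CPM with imiquimod. These were the 2 called higher, and without the same cells neither was, with log2 ratios of 0.49 for Runx3 and 0.39 for Ahr.

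Of the genes that marked imiquimod members most, some were higher with Shi-Bi-Man and some lower. Rbp4 (chromosome 19, 38116629 to 38125281, minus strand) had 8 counts in 6 of 72 members with Shi-Bi-Man and 826 counts in 226 of 501 members with imiquimod, or 49.4 CPM with Shi-Bi-Man and 489 CPM with imiquimod, a log2 ratio of -3.22 (-4.52 to -2.32). Zmynd15 had 92.6 CPM with Shi-Bi-Man and 314 CPM with imiquimod, a log2 ratio of -1.72. On the other side, Pgf had 1253 CPM with Shi-Bi-Man and 659 CPM with imiquimod (log2 ratio 0.93, 0.70 to 1.14), H2-M2 611 CPM with Shi-Bi-Man and 356 CPM with imiquimod (0.78) and H2-M5 228 CPM with Shi-Bi-Man and 104 CPM with imiquimod (1.15). Il1r2 and Tbc1d4 differed by under 1.5-fold, with log2 ratios of 0.38 and 0.29. Apoe, an apolipoprotein that did not mark the members, had 734 CPM with Shi-Bi-Man and 1887 CPM with imiquimod, a log2 ratio of -1.36. It had a count in 55.6% of members with Shi-Bi-Man and 74.1% with imiquimod. After thinning to 500 counts the shares were 31.9% with Shi-Bi-Man (21.4 to 44.0) and 27.9% with imiquimod (24.1 to 32.1). Thinned to 1000 counts they were 39.1% with Shi-Bi-Man and 43.7% with imiquimod, so their order changed with the depth. In the lipid list 0 of 12 genes were higher and 3 lower, against 19.3% higher and 26.4% lower of all measured genes, so the lower part was near that share.

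The proliferation genes were lower almost throughout. Of 30 measured, 0 were at least 1.5-fold higher with Shi-Bi-Man and 23 lower, and the median log2 ratio was -1.07, or -0.995 with 22 lower when Kif11 and Bub1, which had no count with Shi-Bi-Man, were set to the bound of 3 counts. The summed level was 1388 CPM with Shi-Bi-Man and 3271 CPM with imiquimod, a log2 ratio of -1.23 (-1.44 to -1.04), whereas in the remaining cells it was 1711 CPM with Shi-Bi-Man and 1558 CPM with imiquimod. Mki67 (chromosome 7, 135689784 to 135716361) had 105 CPM in members with Shi-Bi-Man and 291 CPM with imiquimod, and was found in 8.33% of members with Shi-Bi-Man and 29.3% with imiquimod. Top2a, the topoisomerase that untangles replicated chromosomes, had 80.2 CPM with Shi-Bi-Man and 227 CPM with imiquimod, and Pclaf, a partner of the replication clamp, 37.0 CPM with Shi-Bi-Man and 215 CPM with imiquimod. Pcna, the clamp itself, was an exception at 167 CPM with Shi-Bi-Man and 173 CPM with imiquimod. In the few members with under 3 marker counts of other skin cells, where fewer genes had enough counts, the median was -0.61 and 1 gene was lower.

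The lower level was also a lower share of cells. With every cell thinned to 500 counts, 15.3% of members with Shi-Bi-Man (7.88 to 25.7) and 26.9% with imiquimod (23.1 to 31.1) held at least 2 proliferation counts. The other marker rules did not all go the same way. T-rule cells had 13.9% with Shi-Bi-Man and 22.96% with imiquimod, macrophage-rule cells 4.88% with Shi-Bi-Man and 7.89% with imiquimod, and keratinocyte-rule cells 29.9% with Shi-Bi-Man and 17.7% with imiquimod.

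Ccnb2, cyclin B2, was the best counted of the mitotic genes that differed, at 228 CPM with Shi-Bi-Man and 655 CPM with imiquimod (log2 ratio -1.50, -2.04 to -1.05). Its promoter is shown because the same CCAAT letters recur there, as is known of genes of the late cell cycle, in steps of 33 and 33 bases between the first bases of the 3 matches. The first match begins at -87 and the last at -21, on GRCm38.p6, and capitals mark all 3.
Ccnb2, chr9:70421556-70421656, minus strand: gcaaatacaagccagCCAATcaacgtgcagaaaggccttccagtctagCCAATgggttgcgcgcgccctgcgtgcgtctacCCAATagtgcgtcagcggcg
Of the 25 proliferation genes with a RefSeq window, 21 held CCAAT or ATTGG, against the 41.1% of all genes given above.

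**Figure D4:**
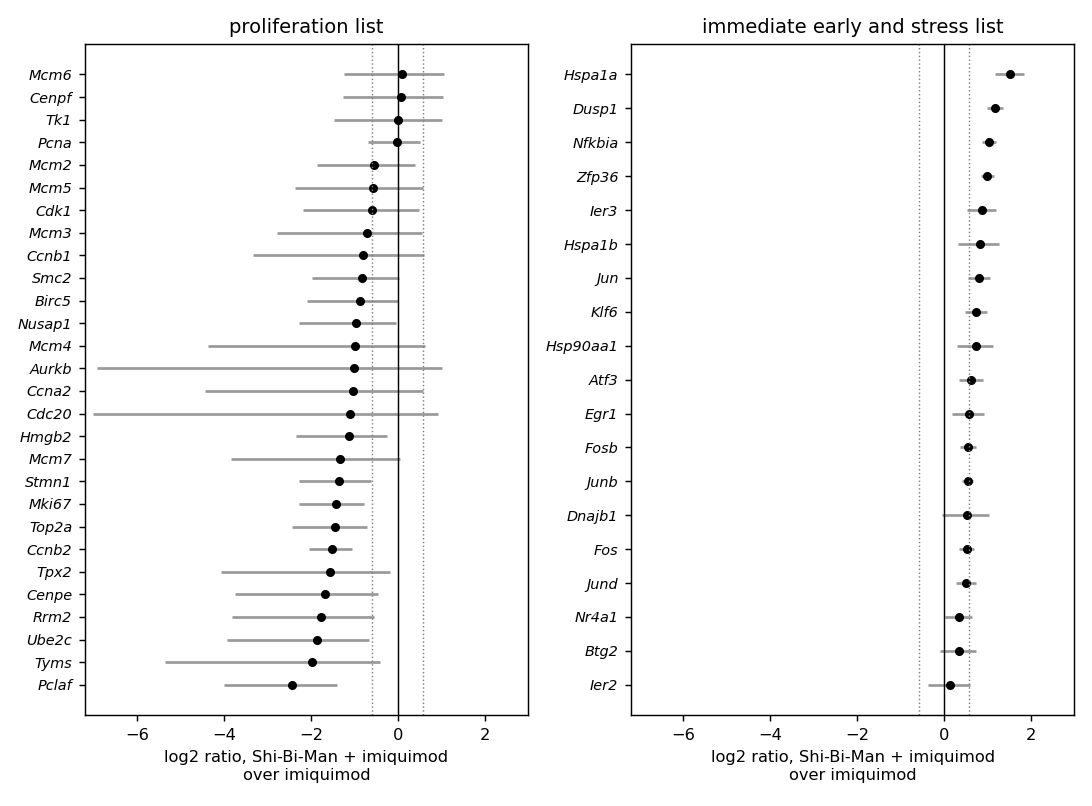
Log2 ratio of Shi-Bi-Man plus imiquimod over imiquimod (x axis) in Langerhans cells for the measured genes (y axis) of the proliferation list (left panel) and the immediate early and stress list (right panel), with exact 95% intervals for counting error and dotted lines at 1.5-fold. Proliferation genes lie mostly left of 0 with wide intervals, and all 19 immediate early genes lie right of it. Kif11 and Bub1, at 0 counts with Shi-Bi-Man, are not drawn.

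Immediate early and stress genes, which many cells switch on within minutes of stimulation or of tissue dissociation, were higher. Of 19 measured, 10 were at least 1.5-fold higher with Shi-Bi-Man and 0 lower, with a median log2 ratio of 0.63, and under TMM scaling 16 were higher with a median of 0.76. Dusp1, a phosphatase that switches off MAP kinases, had 1777 CPM with Shi-Bi-Man and 785 CPM with imiquimod, Zfp36, which destabilises cytokine messages, 2833 CPM with Shi-Bi-Man and 1422 CPM with imiquimod, and Nfkbia, the inhibitor of NF-kappaB, 2505 CPM with Shi-Bi-Man and 1217 CPM with imiquimod. Hspa1a, a heat shock protein, had 599 CPM with Shi-Bi-Man and 209 CPM with imiquimod and Fos, part of AP-1, 1919 CPM with Shi-Bi-Man and 1333 CPM with imiquimod. The summed list was 21876 CPM in members with Shi-Bi-Man and 13185 CPM with imiquimod, while the remaining cells had 23730 CPM with Shi-Bi-Man and 21617 CPM with imiquimod. The members with imiquimod were thus the low group among these 4, and the part of dissociation in this difference was not tested.

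Of the costimulatory list, 5 of 9 measured genes were higher with Shi-Bi-Man and 1 lower, with a median log2 ratio of 0.71. Of all measured genes, 19.3% were higher and 26.4% lower. Cd83 had 2802 CPM with Shi-Bi-Man and 1480 CPM with imiquimod, a log2 ratio of 0.92 (0.77 to 1.07). Its median per cell was 20.02 counts per 10000 with Shi-Bi-Man and 11.8 with imiquimod, and the ranges of 0 to 104 with Shi-Bi-Man and 0 to 96.3 with imiquimod overlapped. Havcr2, the checkpoint receptor TIM-3, had 475 CPM with Shi-Bi-Man and 263 CPM with imiquimod (log2 ratio 0.86, 0.48 to 1.20), and Cd86 543 CPM with Shi-Bi-Man and 455 CPM with imiquimod (0.26, -0.08 to 0.57). Lgals9, a ligand of TIM-3, was the lower gene, at 5 counts with Shi-Bi-Man and 164 with imiquimod. Cd274 and Vsir, also among the 5, rested on 22 and 30 counts over both libraries.

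Of 17 measured cytokine and chemokine genes, 8 were higher and 2 lower, against 19.3% higher and 26.4% lower of all measured genes. The median log2 ratio was 0.18, and of the 5 genes with at least 200 counts 1 was higher and 1 lower. Cxcl2 had 4499 CPM with Shi-Bi-Man and 1841 CPM with imiquimod, a log2 ratio of 1.29 (1.17 to 1.41). Tnf had 216 CPM with Shi-Bi-Man and 84.0 CPM with imiquimod (1.38, 0.79 to 1.90). The Tnf level with Shi-Bi-Man rests on 35 counts in 10 of 72 members. Tnf had a count in 13.9% of members with Shi-Bi-Man and 17.8% with imiquimod. After thinning to 500 counts the Tnf shares were 5.56% with Shi-Bi-Man (1.53 to 13.6) and 4.19% with imiquimod (2.61 to 6.34). Il1b was level at 432 CPM with Shi-Bi-Man and 432 CPM with imiquimod over all members, but 13 cells described below held most of it with Shi-Bi-Man, and without them and their like its log2 ratio was -1.76. For Cxcl16 (chromosome 11, 70453983 to 70459984, minus strand), the chemokine in the study's title, the members had 815 CPM with Shi-Bi-Man and 846 CPM with imiquimod, from 132 counts with Shi-Bi-Man and 1431 with imiquimod. Its log2 ratio of -0.05 had an interval of -0.32 to 0.20, which lies inside 1.5-fold in both directions.

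The IL-23 chains were too rare for a comparison. Il23a had 1 count in members with Shi-Bi-Man and 13 with imiquimod, and Il12b 17 with Shi-Bi-Man, all in 1 cell, and 26 with imiquimod. Il6 had 6 counts with Shi-Bi-Man and 38 with imiquimod. Receptors for GM-CSF were level, with log2 ratios of 0.04 for Csf2rb and 0.10 for Csf2ra. The interferon list was low in both libraries, with at least 2 counts in 8.33% of members with Shi-Bi-Man and 7.98% with imiquimod after thinning, against 48.6% of macrophage-rule cells with Shi-Bi-Man and 39.96% with imiquimod. Clec7a had 574 CPM with Shi-Bi-Man and 380 CPM with imiquimod.

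Of 16 measured genes of maturation and migration, 3 were higher with Shi-Bi-Man and 7 lower. Of all measured genes, 19.3% were higher and 26.4% lower, so the lower part of the list exceeded that share. The median log2 ratio of the list was -0.21. Its summed level was close, at 1728 CPM with Shi-Bi-Man and 1707 CPM with imiquimod. Ccr7 had 247 CPM with Shi-Bi-Man and 171.5 CPM with imiquimod (log2 ratio 0.54, 0.01 to 1.01), and Ccl22 506 CPM with Shi-Bi-Man and 331 CPM with imiquimod (0.62, 0.26 to 0.95). Ccl22 had a count in 19.4% of members with Shi-Bi-Man and 26.9% with imiquimod. After thinning to 500 counts the Ccl22 shares were 4.17% with Shi-Bi-Man (0.868 to 11.7) and 9.38% with imiquimod (6.97 to 12.3). Thinned to 1000 counts they were close, at 14.1% with Shi-Bi-Man and 15.5% with imiquimod. The genes that went with Ccr7 in some imiquimod cells were nearly absent with Shi-Bi-Man, since Fscn1 had 3 counts with Shi-Bi-Man and 143 with imiquimod and Il4i1 1 with Shi-Bi-Man and 93 with imiquimod. With 5 Ccr7-bearing cells in the library with Shi-Bi-Man, these counts cannot show whether that fraction differed in kind. Among junction genes, Ctnna1, the alpha-catenin that links cadherins to actin, had 2073 CPM with Shi-Bi-Man and 1345 CPM with imiquimod, and Cldn1, the tight junction claudin, 1080 CPM with Shi-Bi-Man and 853 CPM with imiquimod. Lysosomal genes were mostly level, with 4 of 17 higher, near the share of all measured genes, and 1 lower. Psap, the precursor of the saposins, had 475 CPM with Shi-Bi-Man and 215 CPM with imiquimod.

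Among genes with at least 50 counts over both libraries and a mean of at least 50 CPM whose level in members was at least 50% of that over all retained cells, which leaves out neutrophil genes, the lowest ratios after that of Rbp4 belonged to genes with very few counts with Shi-Bi-Man. Ggh, a lysosomal hydrolase of folates, had 2 counts with Shi-Bi-Man and 153 with imiquimod, and Cenph, a kinetochore protein, 2 with Shi-Bi-Man and 152 with imiquimod. Ass1, argininosuccinate synthase of arginine synthesis, had 5 counts in 4 members with Shi-Bi-Man and 251 counts in 147 members with imiquimod. Unlike the mitotic genes, Rbp4, Ggh and Ass1 belong to vitamin A transport, folate and arginine metabolism.

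Several of the genes with the highest ratios were markers of other dendritic cells, carried by few members. Naaa had 253 CPM with Shi-Bi-Man and 17.2 CPM with imiquimod, Mgl2 222 CPM with Shi-Bi-Man and 16.0 CPM with imiquimod, Cd209a 296 CPM with Shi-Bi-Man and 27.8 CPM with imiquimod and Mpeg1, the pore-forming perforin-2 of phagocytes, 191 CPM with Shi-Bi-Man and 32.5 CPM with imiquimod. Mgl2 and Cd209a are lectins of dermal dendritic cells of the cDC2 kind, and Naaa is an acid amidase high in some dendritic cells. Summed counts of Mgl2, Cd209a, Naaa, Xcr1, Clec9a and Lyz2 reached 3 or more in 13 of 72 members with Shi-Bi-Man (18.1%, 9.98 to 28.9) and in 32 of 501 with imiquimod (6.39%, 4.41 to 8.90). These 6 genes and the value of 3 were chosen after the ratios were seen.

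In the library with Shi-Bi-Man those 13 cells lacked much of the Langerhans profile. They had 1366 CPM of Cd207 against 5561 CPM in the other 59, 564 CPM of Mfge8 against 4494 CPM, with the Mfge8 counts in 1 of the 13 cells, and 356 CPM of Tbc1d4 against 2882 CPM. Hpgds had 208 against 865 CPM, Csf1r 119 against 857 CPM and Cd83 564 against 3388 CPM. In turn Il1b had 1663 against 109 CPM, Ccr2, the receptor that brings monocytes out of blood, 475 against 7.79 CPM and Eps8, an actin-capping protein, 683 against 0 CPM. In the imiquimod library the 32 cells held more of it, with 1823 CPM of Cd207 against 3145 CPM in the other 469 and 2636 CPM of Mfge8 against 6558 CPM. Their Lyz2, at 2160 against 43.3 CPM, was part of the choice, and C1qb, which was not, had 1905 against 154 CPM. The median depth of the 13 cells was 2195 counts, against 2123 for the other 59.

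**Figure D5:**
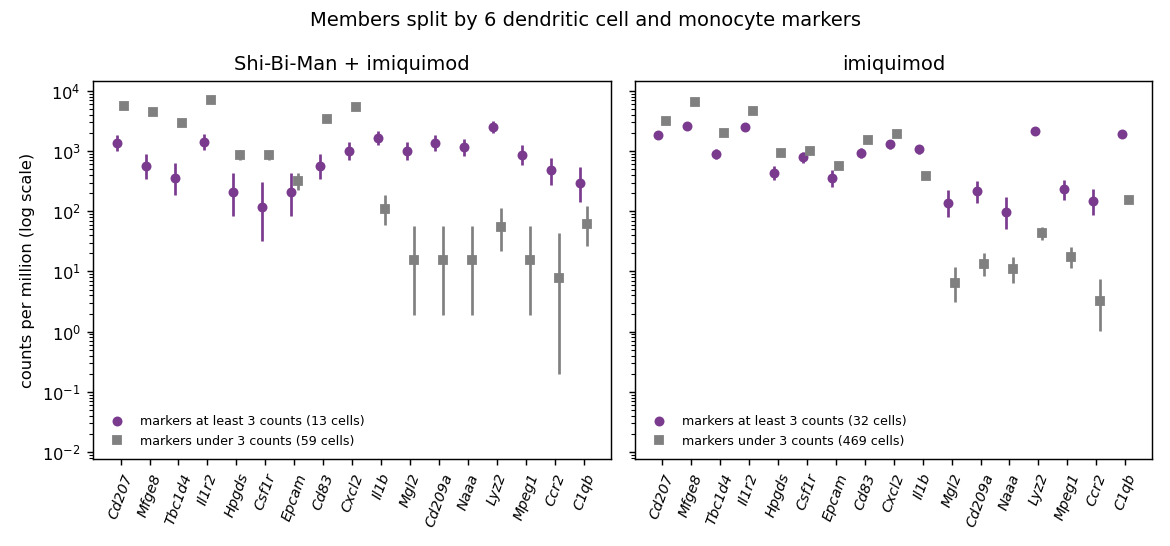
CPM on a log scale (y axis) of the genes named on the x axis in members with at least 3 counts of 6 dendritic cell and monocyte markers (circles) and with fewer (squares), for Shi-Bi-Man plus imiquimod (left panel, 13 and 59 cells) and imiquimod (right panel, 32 and 469 cells), with 95% Poisson intervals. In the left panel Cd207, Mfge8, Tbc1d4 and Cd83 are lower in the marker-bearing cells and Il1b is higher.

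Without the marker-bearing cells of both libraries, the lists ran in the same direction, while a few single values changed. The proliferation list had 21 genes lower and a median log2 ratio of -0.97, and the immediate early list 13 higher and a median of 0.69. The log2 ratio was -3.14 for Rbp4, -0.54 for Mfge8, 1.16 for Cd83 and 1.52 for Cxcl2. Il1b had -1.76 in place of 0.01. Mfge8, Runx3, Ahr, Clec7a and Psap were then within 1.5-fold, with 0.42 for Clec7a and 0.41 for Psap, and the median of the costimulatory list was 0.34 in place of 0.71.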

How the data were processed

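Single-cell 3' RNA sequencing of dorsal skin gave 1 library per group. The deposited values are counts per gene and barcode, whole numbers per the file headers and values. Aligner, counter, cell calling and any collapsing of molecules are not given in the sources used here, and mm10 and GRCm38 are the builds per the submitters' processing notes. Of 55471 gene entries, those sharing a symbol were summed to 55353 symbols, and GENCODE vM21 held 99.6% of the IDs. Barcodes with at least 200 genes and at most 20% mitochondrial counts were retained. No doublet caller was run; leaving out members over 10000 counts or with markers of other cells stood in for one. Counts were summed over members and given as CPM with exact Poisson intervals, shares with Clopper-Pearson intervals, and log2 ratios with 0.5 added to both counts and exact conditional binomial intervals. There is no test, since each group is 1 library. Genes count as higher or lower between libraries at 1.5-fold with at least 20 counts over both, and over the remaining cells at 2-fold with at least 20 counts in imiquimod members. To compare shares of cells, each was thinned to 500 counts.

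The members, the lists and the named genes were chosen with earlier results of these data known. Named are the rule genes, the 20 largest folds over the remaining imiquimod cells, the 10 highest and 10 lowest ratios between libraries, per list the 4 largest of each kind, the 15 most variable genes and a fixed set of cytokines, receptors and markers; other list genes were named after their values were seen. All comparison cells had no count of Cd207. Macrophage-rule cells had at least 10 counts of C1qa, C1qb, C1qc and Lyz2 and none of Cd3e and Cd3g. T-rule cells had at least 2 counts of Cd3e and Cd3g. Keratinocyte-rule cells had at least 20 counts of Krt5 and Krt14, and fibroblast-rule cells at least 20 of Col1a1, Col1a2 and Dcn. Neither of these 2 kinds had a count of Ptprc. Alternatives changed the rule, the scaling (TMM of edgeR 4.0.16, size factors of DESeq2 1.42.0), the minimum count and the fold. Leaving out members with dendritic cell or monocyte markers and the minimum of 200 counts were chosen after seeing the data. The log2 ratio and its interval were checked on simulated counts with counting error only, for genes with at least 200 counts. The other steps were not checked in this way. Python 3.11.15, NumPy 2.4.6, SciPy 1.17.1, pandas 2.3.3, matplotlib 3.10.9 and R 4.3.3 were used.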

Additional observations from a re-analysis of the deposited data

How the results depend on the processing

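No paired analysis was possible because each group is 1 library, and for the same reason no replicate could be left out. Of 174 alternative values of the main results, 130 stayed within 1.5 times or within their counting interval and 44 moved; of 1290 for single genes, 1147 stayed, 129 moved and 14 reversed. The cause was not tested unless fewer cells or genes are named. Leaving out members with 3 or more marker counts of other skin cells left 5 cells with Shi-Bi-Man and 63 with imiquimod: 371 genes were higher and 330 lower, 1 proliferation gene lower (median -0.61), 2 costimulatory genes higher, the share ratio was -3.18 on the log2 scale, and 252 genes were over the remaining cells. The reversed log2 ratios there were Mfge8 0.068, Cdh1 1.43, H2-M2 -2.13, Zmynd15 0.060, Havcr2 -1.42, Ccl22 -0.47, Jun -0.30, Lyz2 -1.09, Mmp12 -0.998, Clec7a -1.27, Psmb8 0.86, Ctnna1 -0.70 and Psap -1.14. Without members with dendritic cell or monocyte markers, Eps8 had -1.75, the immediate early median was 0.69 and the costimulatory list had 3 higher (median 0.34). With Cd207 of at least 1, the immediate early median was 0.54 and the costimulatory one 0.55; with at least 4, the proliferation median was -1.43 and 3 costimulatory genes were higher (0.50). TMM and DESeq2 scaling gave 16 immediate early genes higher (0.76 under both) and costimulatory medians of 0.84. Averaging over cells gave medians of 0.79 and 0.48, and subtracting 5% of the all-cell profile a costimulatory median of 0.49. With at least 50 counts, 637 genes were higher and 1165 lower, and 3 costimulatory genes (0.26); with no minimum, 7021 and 3105; with at least 200, 135 and 264, with 7 proliferation genes lower (-1.39) and 2 costimulatory genes higher (0.86). At 2-fold, 668 and 1123 genes were called, 3 immediate early and 1 costimulatory gene higher; at 4-fold, 317 genes were over the remaining cells. Thinning to 500 counts gave a share ratio of -1.79 (log2), and 195 genes varied at 1000 counts and 2414 without thinning, against 66. The 72 cells with Shi-Bi-Man limit every comparison: 0 counts there allow 18.5 CPM or 4.17% of cells.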
